A study of Caenorhabditis elegans with 2 samples.

Results

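The genes described here license origins of DNA replication in the nematode Caenorhabditis elegans, and the measurement is where the transcription factor DPL-1 lay at them in larvae of the first stage (L1). The 8 genes were chosen by symbol, out of 19973 protein-coding genes: orc-1, orc-2, orc-3, orc-4 and orc-5 of the origin recognition complex, the loading factors cdc-6 and cdt-1, and the inhibitor gmn-1. The data came from chromatin immunoprecipitation and sequencing (ChIP-seq) with an antibody labelled dpl-1, in 2 biological replicates that form the only group of the series. Worms were of strain YL448, a line that carries the mutation unc-119(ed3)III and the integrated transgene vrIs83, in which the ges-1 promoter drives DPL-1 with GFP and FLAG tags and a copy of unc-119 is the rescue marker. Both replicates were L1 larvae of pooled male and female sex, taken as whole organisms, and all of them carried the transgene. The ges-1 promoter is known for its activity in the intestine. The labels do not say whether the antibody recognises native DPL-1 or the tag, so any signal from native DPL-1 and that from the tagged protein cannot be told apart in these peaks.

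Before S phase, the origin recognition complex (ORC) binds DNA and, with CDC-6 and CDT-1, loads the MCM helicase onto it, which licenses the origin to fire once. Geminin, the product of gmn-1, binds CDT-1 and blocks further loading, and CDT-1 is also destroyed in S phase through the CUL-4 ubiquitin ligase. DPL-1 is the DP partner of the E2F protein EFL-1. With the retinoblastoma protein LIN-35 they are part of the DREAM complex, which is known to repress cell cycle genes in worms. E2F factors are known for their sites in the promoters of replication genes in animals.

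Sequences near the summits of the members' peaks are shown first. Where letters that E2F and DREAM proteins are known to bind were found, the stretch with the most of them was picked. Their presence in those stretches therefore follows from the choice, and their shares beside other promoters are given below. Each line gives 30 bases of the forward strand of WBcel235 (ce11), 5′ to 3′, from within 50 bp of the peak summit. The capitals mark a 6-letter E2F core or a CHR word, the cell cycle homology element that LIN-54 of DREAM contacts.
orc-1: acgcagagaGCGCCActTTTGAATTCGAAa
orc-3: ggcgcggaaTTCGAATTTGAAtgggttttt
orc-5: tggctaaactaaGCGCGAtgcgaaataacg
gmn-1: aagtgcggtggaGCGCGAgtgcgccgcgtg
orc-2: ccggcggccgccagccacctcgggtctcgc
orc-4: gaggtgagtgcctgatgcaagcgcgcccca
These stretches lie at III:10643014-10643043 for orc-1, III:1208059-1208088 for orc-3, IV:10734710-10734739 for orc-5, III:12226282-12226311 for gmn-1, II:10872730-10872759 for orc-2 and III:10646266-10646295 for orc-4. The last pair is centred on the summit and holds no capital, since none of the words searched lay within 50 bp. For gmn-1 and orc-2 the peak is not in the gene's own promoter, as described below. The sequences of cdc-6 and cdt-1 are not shown.

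DPL-1 peaks lay in the promoters of 6 of the 8 genes. For the other 2, orc-2 and gmn-1, a peak lay farther upstream. In both cases its summit was in the promoter of a neighbour transcribed in the same direction and of another on the opposite strand. A gene was called bound when a peak that passed the authors' irreproducible discovery rate (IDR) threshold had its summit between 500 bp upstream and 200 bp downstream of an annotated transcript start. The 6 genes are 75% of the members, and 14.3% of all protein-coding genes (2852 of 19973) were called by the same rule. The 8 genes were chosen with results of these data known, so no test was made of that share. Bound members had a median signal of 649, against 154 over all bound genes, and 5 of the 6 members were above this median of all bound genes. Signal is the authors' own value for each peak, on a scale the deposited files do not state, and it is used here to compare peaks within a list.

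**Figure D1:**
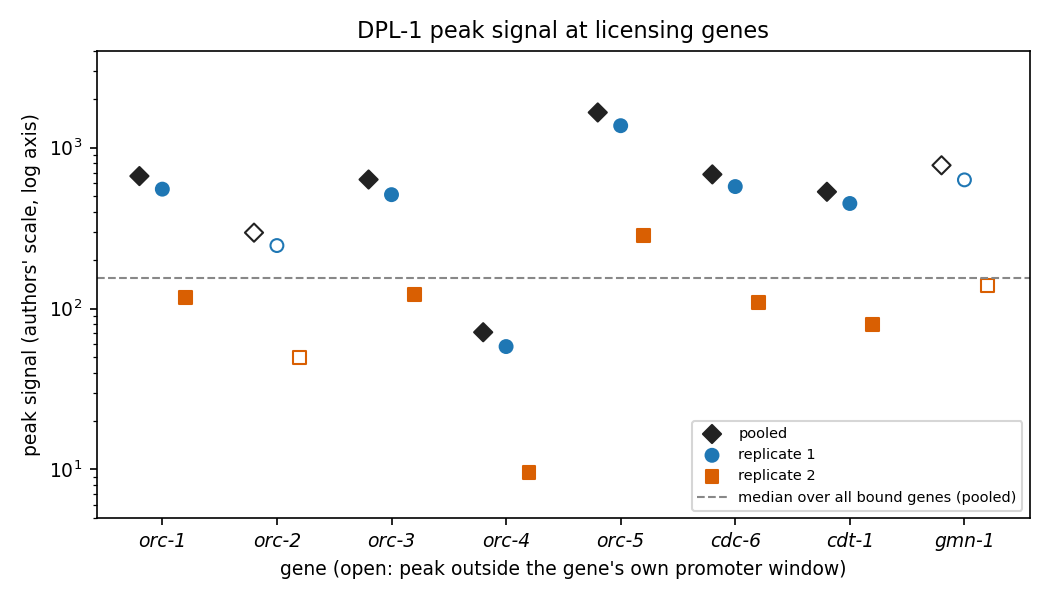
Signal of each gene's DPL-1 peak in the pooled list (diamonds), replicate 1 (circles) and replicate 2 (squares), on a log axis. Filled symbols are peaks in the gene's own promoter window, open symbols are the upstream peaks of orc-2 and gmn-1, and the dashed line is the median pooled signal of all bound genes (154). The peak of orc-5 is the highest (pooled signal 1654) and that of orc-4 the lowest (71.2) in each of the lists.

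The genes of the origin recognition complex spanned the range. ORC-5 is a subunit of the AAA+ family, and its gene had the strongest peak, at IV:10734568-10734871, with the summit 130 bp upstream of the first transcript start and 1532 bp upstream of the second. Its signal was 1369 in replicate 1 (rank 74 of 30000) and 285 in replicate 2 (rank 105), and in the pooled list it ranked 77. Among all bound genes, 3.23% had a signal as high or higher. Relative to cdc-6, the next strongest of the bound members in the pooled list and in replicate 1, the orc-5 signal was 2.39 times as high in replicate 1 and 2.61 times as high in replicate 2, where orc-3 and orc-1 were above cdc-6.

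The gene for ORC-1, the subunit whose AAA+ domain contacts CDC-6 in other animals and yeast, had a peak at III:10642867-10643122 that reached its summit at -136 bp, where negative distances are upstream of the start. The signal was 552 in replicate 1 (rank 366) and 117 in replicate 2 (rank 359), and the pooled rank was 365. The orc-3 peak, at III:1207920-1208173 with its summit at -89 bp, had a signal of 510 in replicate 1 (rank 408) and 122 in replicate 2 (rank 345), and ranked 390 in the pooled list. ORC-3 is a core subunit of the complex. These 2 genes took the reverse order in the replicates, with orc-1 the stronger in replicate 1 and orc-3 the stronger in replicate 2, so their signals were not distinguishable.

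ORC-4 is another AAA+ subunit, and its gene had a peak that was weak in both replicates. It lay at III:10646121-10646440, with a signal of 58.0 in replicate 1 (rank 2429) and 9.60 in replicate 2 (rank 2778), and a pooled rank of 2334. The pooled signal of 71.2 was 0.462 times the median of bound genes and not far above 39.5, the lowest in the IDR list. The gene has 4 annotated starts, and the summit was 111 and 53 bp downstream of the first pair and 63 and 535 bp upstream of the others, in an intron by the annotation. It was the only summit of the 8 that was not intergenic. The replicates' summits were 33 bp apart there, against at most 14 bp for the other 7 peaks.

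The 2 loading factors had peaks of similar size to those of orc-1 and orc-3. CDC-6 joins ORC on DNA before the helicase arrives, and its gene had a peak at I:4270453-4270685 with the summit at -284 bp. Its signal was 573 in replicate 1 (rank 349) and 109 in replicate 2 (rank 382), with a pooled rank of 355. CDT-1 carries the helicase to the origin. The cdt-1 peak, at I:3227975-3228216, had its summit at -18 bp, the one closest to a start among the 8. Its signal was 450 in replicate 1 (rank 458) and 79.7 in replicate 2 (rank 520), and the pooled rank was 471. In both replicates cdc-6 was the stronger of the 2.

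Geminin's gene, gmn-1, had no peak summit of any of the 4 lists in its promoter window. The lists of each replicate and of the pooled data hold 30000 peaks without a threshold. The closest IDR peak upstream spanned III:12226147-12226422 and reached its summit 969 bp before the gmn-1 start. It was the second strongest of the 8 peaks in each replicate, with a signal of 630 in replicate 1 (rank 307) and 140 in replicate 2 (rank 300), and it ranked 297 in the pooled list. That summit was 70 bp upstream of the nearest start of Y75B8A.18, which ends 307 bp before gmn-1 begins on the same strand, and 332 bp upstream of Y75B8A.19 on the other strand.

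For orc-2, whose product is a core ORC subunit, the pooled list likewise held no peak summit in the promoter window. Replicate 1 had one of rank 19813 there and replicate 2 one of rank 17304 at -500 bp, the edge of the window, and these 2 summits were at different places. The closest IDR peak upstream spanned II:10872634-10872827 and reached its summit 1186 bp before the orc-2 start. Its signal was 246 in replicate 1 (rank 760) and 49.8 in replicate 2 (rank 731), and its pooled signal of 296 (rank 746) was 1.92 times the median of bound genes. The summit lay 134 bp upstream of both copz-1 and cyn-4, which are transcribed away from each other. The gene copz-1, for a coatomer subunit, ends 134 bp before orc-2 begins on the same strand, and cyn-4 codes for a cyclophilin.

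**Figure D2:**
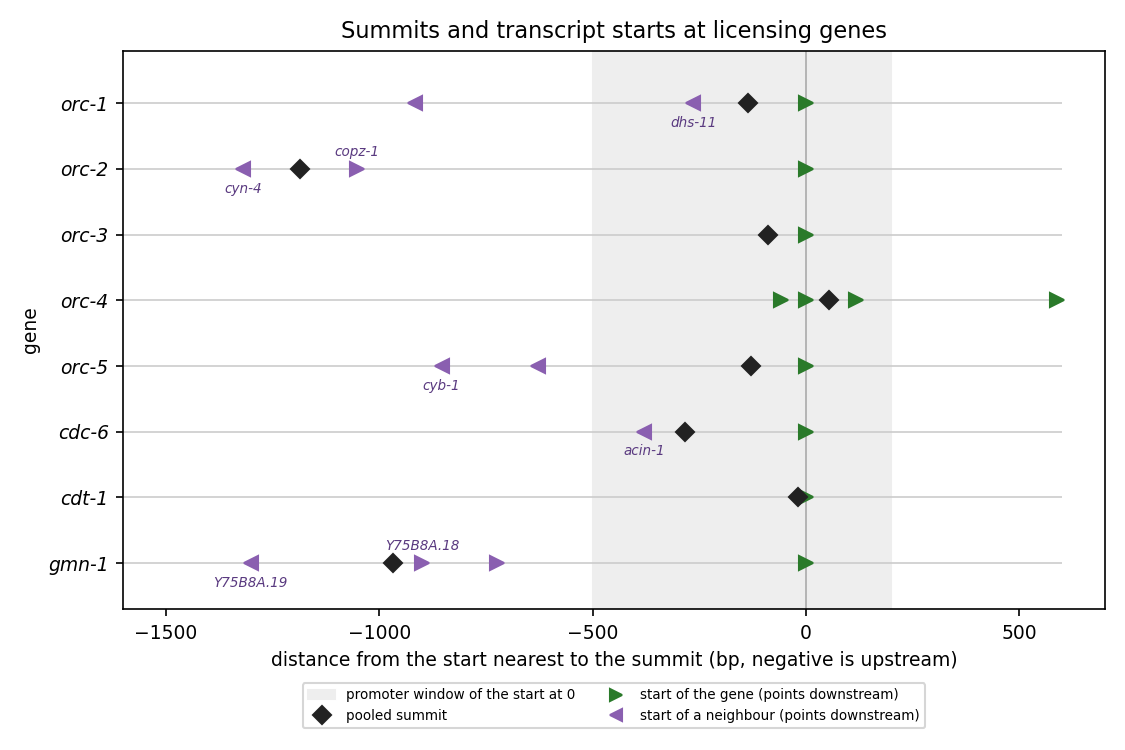
Pooled summits (diamonds) and annotated transcript starts (triangles that point downstream) around each gene, as the distance from the gene's start that is nearest to the summit, in bp. Green triangles are starts of the gene, purple ones those of neighbours that share the peak, and the grey band is the window from -500 to 200 bp. The summits of orc-2 (-1186 bp) and gmn-1 (-969 bp) sit next to starts of copz-1 and cyn-4 and of Y75B8A.18.

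Of the 6 bound members, 3 shared their peak with a divergent neighbour and 3 did not. The orc-1 summit was 128 bp upstream of dhs-11, a gene of the short-chain dehydrogenase family, so it lay 8 bp closer to that start than to the start of orc-1. The cdc-6 summit was 95 bp upstream of acin-1, the gene of the worm's acinus protein, and 284 bp upstream of cdc-6. The orc-5 summit was 498 bp upstream of cyb-1, a cyclin B gene, and far closer to orc-5. The peaks of orc-3, orc-4 and cdt-1 were in the window of no other protein-coding gene. Over all bound genes, 44.6% had a strongest peak that was also the strongest peak of another gene. That is a stricter count than the one for the members, which takes any gene whose window holds the summit. With each summit given to the nearest start alone, orc-1 and cdc-6 were no longer called, and 4 of the 8 genes remained called, against 13.0% of all genes under that rule.

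In worms many genes are transcribed as operons, from a promoter upstream of the first gene, and the annotation used here does not mark operons. An arrangement of this kind was therefore described by distance alone, a choice made after the peaks were seen. A gene of the same strand ended within 500 bp upstream of 3 members: copz-1 before orc-2, Y75B8A.18 before gmn-1, and orc-1 itself before orc-4, with 111 bp between them. All 3 upstream genes had a bound promoter, and 1 of the 3 downstream members (orc-4) did. The signal at orc-1 was 9.51 times that at orc-4 in replicate 1 and 12.1 times in replicate 2. Across the genome, 3618 genes had such an upstream neighbour. Of these 10.1% were bound in their own window, against 15.2% of the 16355 other genes, and for 24.8% the upstream neighbour was bound. With a gene counted as bound through either window, all 8 members were called, against 18.3% of all genes. Whether orc-2, orc-4 or gmn-1 is transcribed from the upstream promoter was not tested.

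All 8 peaks came from the IDR list, in which they had the same rank as in the pooled list. A place in the IDR list did not require similar ranks in both replicates. Of its 2262 promoter peaks, 2043 were matched in both replicate lists, and some of these had ranks far apart in the 2 replicates. How far the similar ranks of the 8 peaks follow from their choice was not tested. Each of the 8 was matched in both replicate lists by a summit within 100 bp. The ratio of replicate 1 to replicate 2 signal was between 4.17 (orc-3) and 6.04 (orc-4), within the 10th to 90th percentile range of all matched promoter peaks (3.38 to 10.1, median 5.21), and the pooled signal was 0.995 to 1.05 times the sum of the 2. Replicate 1 thus dominates pooled signal and rank. Leaving out either replicate, with the other's strongest 3726 peaks in place of the IDR list, left the same 6 members called. The shares of all genes were 12.8% without replicate 1 and 14.3% without replicate 2. For the members this follows from the replicate ranks given above and is no separate check. The 6 were also called, with no other member, when any overlap of the peak with the window counted (15.3% of all genes), and without orc-4 in the 1863 strongest IDR peaks (9.36% of all genes). Of the 8 peaks, 7 were at the highest -log10 q of the pooled list, 3.64, which 2162 peaks share, and the orc-4 peak had 3.19. The 8 peaks were 194 to 320 bp wide, and the median promoter peak of the IDR list had a width of 320 bp.

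**Figure D3:**
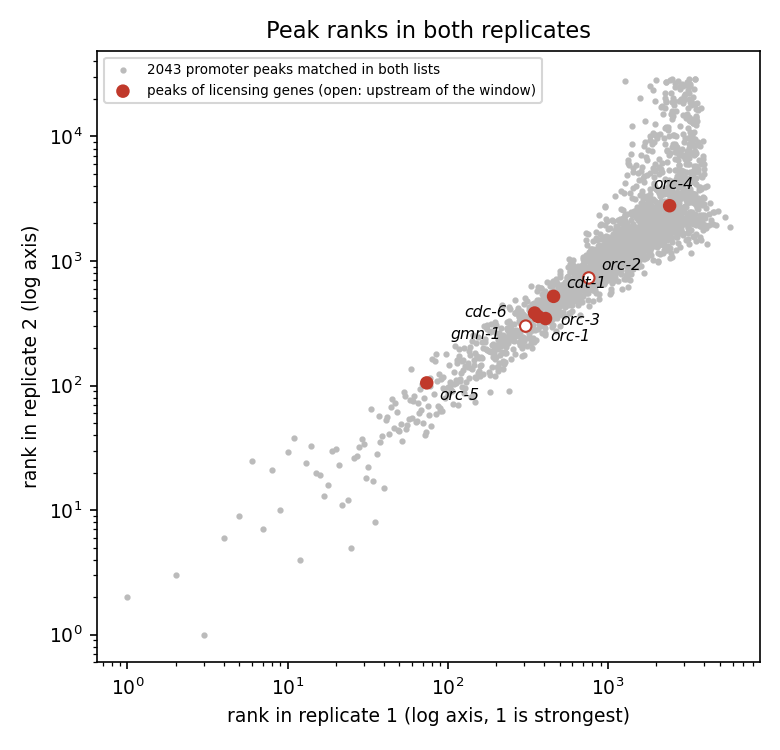
Rank in replicate 1 against rank in replicate 2, both on log axes where 1 is the strongest peak, for 2043 promoter peaks of the IDR list that are matched in both lists (grey) and for the peaks of the 8 genes (red, open for the upstream peaks of orc-2 and gmn-1). Of the 8, 5 lie close together (pooled ranks 297 to 471), with orc-5 stronger and orc-2 and orc-4 weaker.

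Genes with the most similar pair of replicate signals were sought among the 2620 bound genes whose peak is matched in both replicates. The measure was the smallest distance between log2 signals over the 2 samples. Genes whose strongest peak was the member's own peak were left out, so only other peaks were compared. For orc-5 these were C34C12.8 (distance 0.0272) and snrp-3 (0.0950). For orc-1 they were acl-2 and acdh-13, and for orc-3 sel-9 and dao-5. The peak nearest to that of cdc-6 was shared by bir-2 and nuaf-1, that nearest to cdt-1 was at ppfr-2, followed by tin-13, and the weak orc-4 peak was nearest to those of Y54F10AL.1 and smap-1. The distances were between 0.0224 (sel-9 to orc-3) and 0.0950 on the log2 scale.

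Letters of the CHR and E2F sites were found near most of the summits, at shares not all above those of other promoters. The searched E2F words were TTTCCCGC, TTTGGCGC, TTTCGCGC and TTTGCCGC, the E2F cores were the last 6 letters of each, so that a full word also counts as a core, and the CHR words were TTTGAA and TTCGAA. Matches on either strand counted. Within 50 bp of the summit, 3 of the 8 windows (37.5%) held an E2F core, against 34.7% of the 2262 promoter summits of the IDR list and 7.03% of all promoters over a window of the same length, centred 100 bp upstream of the start. The share in the members' windows was thus near that of the other bound promoters. A CHR word was in 5 of the 8 (62.5%), against 32.7% of the IDR promoter summits and 32.9% of all promoters. That difference depended on the window: within 100 bp of the summit the CHR share was 62.5% of the members' windows and 54.1% of the IDR promoter summits, and from 250 bases before to 50 after the start it was 75.0% of the members and 68.9% of all promoters. None of the 8 windows within 50 bp held a full E2F word, which 7.52% of the IDR promoter summits and 1.74% of all promoters did. Within 100 bp of the summit a full E2F word was found for orc-1 and cdt-1 (2 of the 8 windows, against 10.6% of IDR promoter summits), and the promoters from 250 bases before to 50 after the start held one for the same 2 genes (2 of the 8, against 4.69% of all promoters).

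The matches differed from gene to gene. At orc-1 an E2F core on the reverse strand (GCGCCA as printed) was followed by the adjoining CHR words TTTGAA and TTCGAA, centred 32.5, 40.5 and 46.5 bp from the summit. At orc-3 the same pair of CHR words adjoined in the other order, 26.5 and 32.5 bp from the summit. At orc-5 the E2F core TCGCGC occurred at 6.5 and 39.5 bp, both on the reverse strand, with no CHR word. The peak upstream of gmn-1 held TCGCGC 3.5 bp from its summit and a CHR word 37.5 bp from it. The windows of cdc-6 and cdt-1 held 1 CHR word each. Base composition differed as well: G and C made up 37.6% (cdc-6) to 55.4% (cdt-1) of the members' windows, with medians of 45.5% over IDR promoter summits and 33.7% over all promoters.

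**Figure D4:**
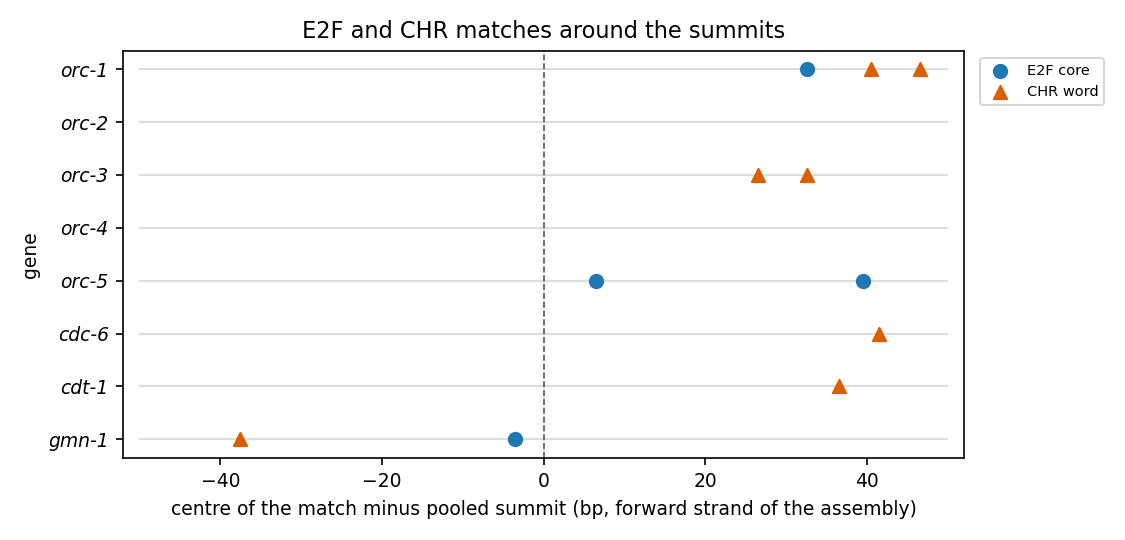
Centres of E2F cores (circles) and CHR words (triangles) within 50 bp of the pooled summit of each gene's peak, in bp along the forward strand of the assembly. The windows of orc-2 and orc-4 hold neither, and in the other 6 windows the matches lie between 37.5 bp below and 46.5 bp above the summit.

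Beside these words, orc-3 and orc-4 had a run of 12 letters in common, the longest shared by any of the 28 pairs of windows (median 7.5 letters). It is shown in capitals below because it sits almost on the summit of the weak orc-4 peak, from 1 bp below to 10 bp above it, and 24 to 13 bp below the summit of the strong orc-3 peak.
orc-3: aatgcaataATGCAAGCGCGCtccactgta
orc-4: gagtgcctgATGCAAGCGCGCcccactgga
The positions are III:1208011-1208040 for orc-3 and III:10646271-10646300 for orc-4, forward strand. Beyond the run, after a letter that differs, both lines also read ccactg, so the likeness is longer than the capitals. The run occurred 364 times on the 6 chromosomes, in 0.619% of IDR promoter summit windows (14 of 2262) and in 0.0651% of all promoter windows (13 of 19973). The orc-3 and orc-4 windows, from which the run was taken, are among the 14. The median G and C content also differed, at 45.5% over IDR promoter summits and 33.7% over all promoters. The run was found after the sequences were seen and is a description of these letters only.

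The genes that act with or after licensing were grouped by role. Of 37 genes listed, 34 matched the annotation, and 22 of these (64.7%) were bound, again beside 14.3% of all genes. All 6 genes of the MCM helicase, which the licensing factors load, were bound, with signals between 434 (mcm-3) and 1030 (mcm-7). The genes that did not match by symbol, cdc-45, dbf-4 and sld-3, were all among the 12 listed for turning the loaded helicase into a moving one. They were not assessed. Of the 9 matched genes of this role, 8 were bound. The strongest were ctf-4, which ties polymerase to the helicase (signal 1064), the GINS subunit gene psf-3 (972), the initiation factor gene sld-2 (948) and mcm-10 (650). The weakest was mus-101, with a signal of 74.9 (rank 2246). The GINS subunit gene sld-5 was not bound, and its window held only a pooled peak of rank 24416.

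The other roles were proteolysis and removal of replication proteins from chromatin, and kinases, cyclins, an inhibitor and an exportin. Differences between roles in the number bound were not tested, and the share of all genes bound was 14.3%, as above. Of 13 genes for proteolysis and removal, 5 were bound, among them cdc-48.1 (signal 5125), whose product extracts proteins from chromatin, and pcn-1 (2293), the PCNA clamp on which CDT-1 is marked for destruction. The substrate receptor gene cdt-2 (397) and the scaffold gene cul-4 (323) of the ligase that destroys CDT-1 were bound too, and its adaptor gene ddb-1 had a weak peak (64.8). The genes cul-2 and lrr-1, of a ligase with a part in unloading the helicase, were not bound. The cul-2 window held the summit of a pooled peak of rank 3814, just outside the 3726 peaks of the IDR list. That of lrr-1 held no pooled summit. Of 6 kinase, cyclin, inhibitor and export genes, 3 were bound: cdk-1 (454), cdk-2 (82.0) and xpo-1 (66.3), the exportin gene. Neither cye-1, for cyclin E, nor cya-1, for a cyclin A, had a pooled peak summit in its window. An IDR peak overlapped the window of cye-1, with its summit outside. With promoters taken from 1000 bp upstream, cdc-48.2, ubxn-3, ulp-4 and cye-1 were called as well, which made 8 of the 13 proteolysis genes and 4 of the 6 kinase, cyclin, inhibitor and export genes. With each summit given to its nearest start, 5 of 6 helicase genes and 6 of 9 helicase activation genes were called. So were 6 of 13 proteolysis genes and 4 of 6 of the last role, against 13.0% of all genes under that rule. From 1000 bp upstream, gmn-1 was called among the members, and 17.3% of all genes were. DPL-1's own gene had a promoter peak of rank 675 (signal 340), weaker than those of orc-1, orc-3, orc-5, cdc-6 and cdt-1. The promoter peaks of its partners had rank 6 (signal 3429) at efl-1, 110 (1445) at lin-54 and 301 (772) at lin-35.

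**Figure D5:**
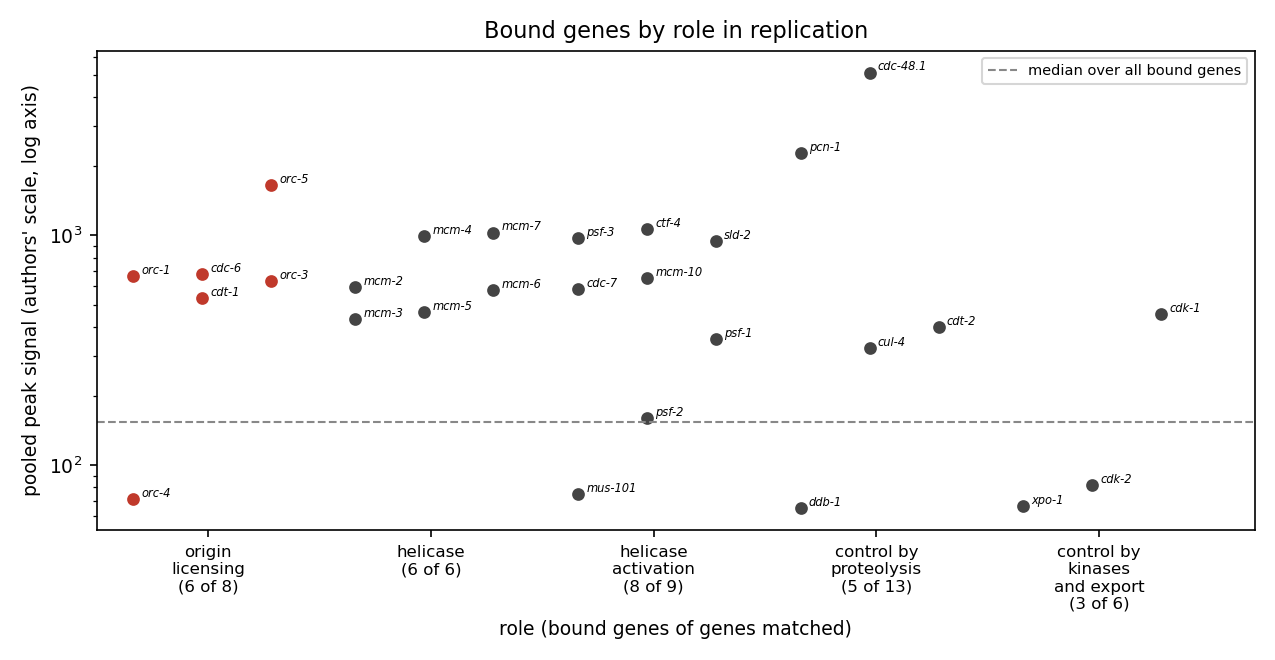
Pooled peak signal (log axis) of the bound genes by role, for the licensing genes (red) and the genes that act with or after them (dark grey). Numbers under each role are bound genes of those matched to the annotation, and the dashed line is the median signal of all bound genes (154). All 6 helicase genes and 5 of the 6 bound licensing genes lie above the line, and 3 of the weak ones are ddb-1, cdk-2 and xpo-1.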

How the data were processed

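The 2 replicates were put in 1 group from their descriptions, with replicate numbers from the labels. Per-replicate lists derive from that replicate's alignment with a control, the pooled list derives from the 2 alignments with theirs, and the IDR list derives from the other lists, per the file descriptions that accompany the samples. No source used here names the aligner or peak caller. The authors deposited a signal, a -log10 q and a summit offset for each peak. Read totals were not in these lists, so the depth is unknown and no interval was made. Only ce11 lists were used, with the Ensembl 115 annotation of WBcel235 and the RefSeq sequence of that assembly. No peak ended beyond a chromosome. Starts were 29314 positions of protein-coding transcripts. Peaks were matched at summits within 100 bp, and the strongest match was taken.

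Members, gene lists and words were chosen with earlier results of these data known. Named genes were the members, neighbours that share their peaks or end upstream of them, and up to 4 bound genes per role with the highest signal. Named too were 2 genes of most similar signal at another peak per bound member, and the regulators dpl-1, efl-1, lin-35 and lin-54. The listed genes that did not match the annotation were named as well. Other genes named by role (mcm-3, sld-5, mus-101, ddb-1, cul-2, lrr-1, cdc-48.2, ubxn-3, ulp-4, cye-1 and cya-1) were chosen after their values were seen. The code was tested on simulated summits and words. Python 3.11.15, numpy 2.4.6, pandas 2.3.3 and matplotlib 3.10.9 were used.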

Additional observations from a re-analysis of the deposited data

How the results depend on the processing

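The number of bound members was 6 of 8, against 14.3% of all genes. It was 7 with promoters from 1000 bp upstream (gmn-1 gained), against 17.3% of all genes. With each summit given to its nearest start it was 4 (orc-1 and cdc-6 lost), against 13.0%. In the 1863 strongest IDR peaks it was 5 (orc-4 lost), against 9.36%. With any overlap of peak and window it was 6, against 15.3%. It was also 6 without replicate 1 (12.8% of all genes) and without replicate 2 (14.3%), as the members' replicate ranks imply. The number of bound genes among the 34 of the other roles, 22, was between 18 in those 1863 peaks and 26 with promoters from 1000 bp upstream, and 22 without either replicate. With the window of a same-strand gene upstream added, an alternative chosen after seeing the data, the 2 numbers were 8 and 23. The share of all genes under that rule was 18.3%. All 8 peaks were matched in both replicates at 50, 100 and 200 bp. Windows with an E2F or CHR word were 6 at 50 bp, 6 at 100 bp and 7 in promoters of 250 bases before to 50 after the start, against 53.6% and 70.8% of IDR promoter summits and 75.3% of all promoters, so the members' 75.0% and 87.5% were near the background in the wider windows. The rank of each bound member's peak was nearer to that of replicate 1, and in replicate 2 it was 359 for orc-1, 345 for orc-3, 2778 for orc-4, 105 for orc-5, 382 for cdc-6 and 520 for cdt-1. No paired analysis was possible because the series holds 1 group. Lists on build ce10 were not analysed here, and the missing read totals limit what can be said of weak peaks such as that of orc-4.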
